A study of Mus musculus with 6 samples.

Results

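The acinar cell genes described here are the digestive enzymes, zymogen granule proteins and acinar transcription factors of a list of 38 symbols, of which 37 matched a row among the 53670 genes of the deposited count table. Spink3, the remaining symbol, was not analysed here. The list holds 33 enzyme and zymogen genes and the 4 transcription factor genes Ptf1a, Bhlha15, Rbpjl and Nr5a2, and all 37 passed the filter on low counts. The samples were pancreatic islets, freed with collagenase from mice aged 6 weeks, with 3 wild-type libraries (WT, Paupar +/+) and 3 knockout libraries (KO, Paupar -/-). Paupar is a long noncoding RNA gene beside Pax6. The labels do not give the sex, the strain, how the knockout allele was made or whether a library came from 1 animal or from a pool. The replicates are therefore taken as separate samples, and p-values measure only the spread between them, which may be technical.

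Acinar cells are the exocrine cells that surround the islets. They make digestive enzymes, many as inactive zymogens such as trypsinogen, store them in granules and release them into the ducts when cholecystokinin or acetylcholine acts on the cell. The PTF1 complex, which contains the factors encoded by Ptf1a and Rbpjl, and the orphan nuclear receptor encoded by Nr5a2 drive enzyme genes, and the factor encoded by Bhlha15 (MIST1) maintains the secretory architecture. Islets released by collagenase carry acinar cells and acinar RNA with them in varying amounts.

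The libraries held 25733194 to 27285009 gene counts. Insulin genes took 18.9% to 24.5% of them, so the islet label held in every library. Paupar had 111 to 252 counts in WT and 0 to 4 in KO. Xist, the noncoding RNA of the inactive X chromosome, had 1120 and 862 counts in KO replicates 2 and 3 and 0 to 6 in the other 4 libraries, so sex-linked transcripts divide the KO libraries. Its part in the results below was not tested, apart from the fit with a sex covariate. Levels are in CPM (gene counts divided by library size, corrected by TMM factors), and shares are percentages of a library's total gene count.

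Acinar transcripts made up a sizeable and very uneven part of these islet libraries. The 37 genes took 9.45% of counts in WT replicate 1, 5.36% in WT replicate 2 and 3.18% in WT replicate 3. In KO replicates 1 to 3 they took 5.67%, 4.04% and 2.20%. The highest library held 4.30 times the share of the lowest, and both groups spanned much of this range, with the KO values lying between and below the WT values. The mean was 6.00 ± 3.18% (SD, n = 3) in WT and 3.97 ± 1.74% in KO, so the gap between the groups was smaller than the spread within WT. The KO minus WT difference was -2.03 percentage points with all libraries, but -0.301 without WT replicate 1, -1.14 without KO replicate 3 and -3.44 without WT replicate 3. Exact 95% binomial (Clopper-Pearson) intervals were narrow, from 9.443% to 9.465% for WT replicate 1 and from 2.193% to 2.204% for KO replicate 3, and cover counting error only. In bulk samples fewer acinar cells and less RNA per cell cannot be told apart.

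**Figure D1:**
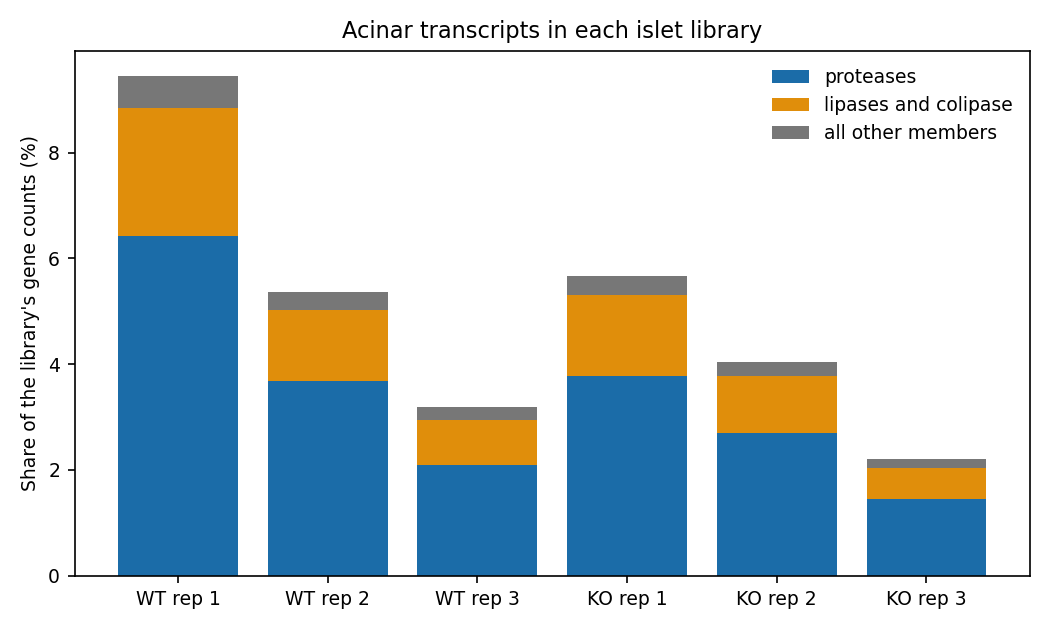
Share of each library's gene counts (%, y axis) taken by the acinar genes in the 3 WT and 3 KO islet libraries (x axis), with proteases, lipases with colipase, and all other members stacked. WT replicate 1 reaches 9.45% and KO replicate 3 stops at 2.20%, and the groups overlap.

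By role, proteases took most of the acinar counts and lipases most of the rest, in nearly fixed proportion. The 16 serine proteases and carboxypeptidases made up 65.8% to 68.6% of the members' counts in every library, and the 5 lipase and phospholipase genes with Clps, the gene of the lipase cofactor colipase, made up 25.1% to 27.1%. The single ribonuclease gene, Rnase1, gave 2.31% to 2.71%, and the 5 granule and secreted proteins 2.81% to 3.26%. The amylase rows Amy1 and Amy2b together gave 0.455% to 1.06%. This leaves out unlisted amylase copies such as Amy2a3, and reads shared between copies may be lost. The 4 transcription factors gave 0.138% in WT replicate 1 and 0.429% in KO replicate 3. Nearly all of this was Bhlha15. Between the same libraries Ptf1a went from 0.2745 to 0.0843 and Rbpjl from 0.741 to 0.371 per 10000 member counts, the opposite direction.

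The most abundant member was Ctrb1, which encodes chymotrypsinogen B (mm9, chromosome 8, 114210410 to 114214910). Its level was 15320, 8499 and 4671 CPM in WT replicates 1 to 3 and 9002, 6400 and 3127 CPM in KO replicates 1 to 3. The KO libraries lay on both sides of WT replicates 2 and 3, and the groups overlapped. Scaled by exonic length, Ctrb1 was first with a mean over 6 libraries of 8835 CPM per kilobase, Cela1 (pancreatic elastase 1; chromosome 15, 100504856 to 100518351) followed at 4322 and Pnlip (pancreatic triglyceride lipase; chromosome 19, 58744855 to 58756276) at 4257. Prss2, an anionic trypsinogen gene (chromosome 6, 41471786 to 41475078), stood at 3492 CPM per kilobase and Clps (chromosome 17, 28695155 to 28697711) at 1828. Each of these averages hides a range of 3.98-fold to 4.90-fold between libraries, so their order is described here without a test.

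Among the lipases, Pnlip was at 11700, 6012 and 4083 CPM in WT and 8049, 5288 and 2793 in KO. Cel, the bile salt-stimulated carboxyl ester lipase (chromosome 2, 28411315 to 28418923), was at 6440, 3710 and 2091 CPM in WT and 3978, 3033 and 1515 in KO. Both genes followed the library order of Ctrb1. Rnase1, the secreted pancreatic ribonuclease (chromosome 14, 51764677 to 51766442), had 2414, 1397 and 724.4 CPM in WT and 1358, 968.3 and 550.5 in KO, and differed from that order only in that WT replicate 2 came just above KO replicate 1. Zg16, a zymogen granule lectin (chromosome 7, 134193670 to 134195491), led the granule proteins per kilobase with a mean of 734.8 CPM per kilobase, ahead of Sycn (syncollin), which binds the granule membrane, at 596.4. Gp2, the major granule membrane glycoprotein (chromosome 7, 126586057 to 126602786), had nearly the same counts as Zg16 (fewer in WT replicates 1 and 2 and KO replicates 1 and 3, more in the others), at 833.2, 453.6 and 328.9 CPM in WT and 541, 448.1 and 204.7 in KO, and kept the library order of Ctrb1.

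Most of the remaining members followed the same course. Carboxypeptidases Cpa1 and Cpb1, which trim peptides from the C-terminal end, ranged from 1529 to 5818 and from 1973 to 7346 CPM. Among the remaining serine proteases Cela3b was at 617.9 to 2981 CPM, Ctrl (a chymotrypsin-like gene) at 773.7 to 2823 and the tissue kallikrein gene Klk1 at 172.9 to 824.5. Cela3a was near the detection limit with 18 to 89 counts, and it has no entry in the gene annotation used. The lipase-related genes Pnliprp1 and Pnliprp2 ranged from 1043 to 3454 and from 148.5 to 628.4 CPM, and the secreted phospholipase gene Pla2g1b from 46.5 to 198.8. The trefoil factor gene Tff2 was at 40.0 to 135.2 CPM and Cuzd1, of a granule membrane protein, at 56.9 to 211.6. Of the 2 endoplasmic reticulum genes, Erp27 was at 27.1, 21.99 and 8.30 CPM in WT and 19.3, 16.7 and 11 in KO, lowest in WT replicate 3, and the disulfide isomerase gene Pdia2 had 13 to 79 counts. In each of these genes WT replicate 1 was the highest library.

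The enzyme genes rose and fell together from library to library, almost in proportion. All 33 were highest in WT replicate 1, 29 were lowest in KO replicate 3, and 19 shared the complete order WT replicate 1, KO replicate 1, WT replicate 2, KO replicate 2, WT replicate 3, KO replicate 3. The median enzyme stood 1.09 above its own 6-library mean on the log2 scale in WT replicate 1 and 0.93 below it in KO replicate 3 (a median deviation of -0.934). This order alternates between the genotypes, and within each genotype it falls from replicate 1 to replicate 3.

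**Figure D2:**
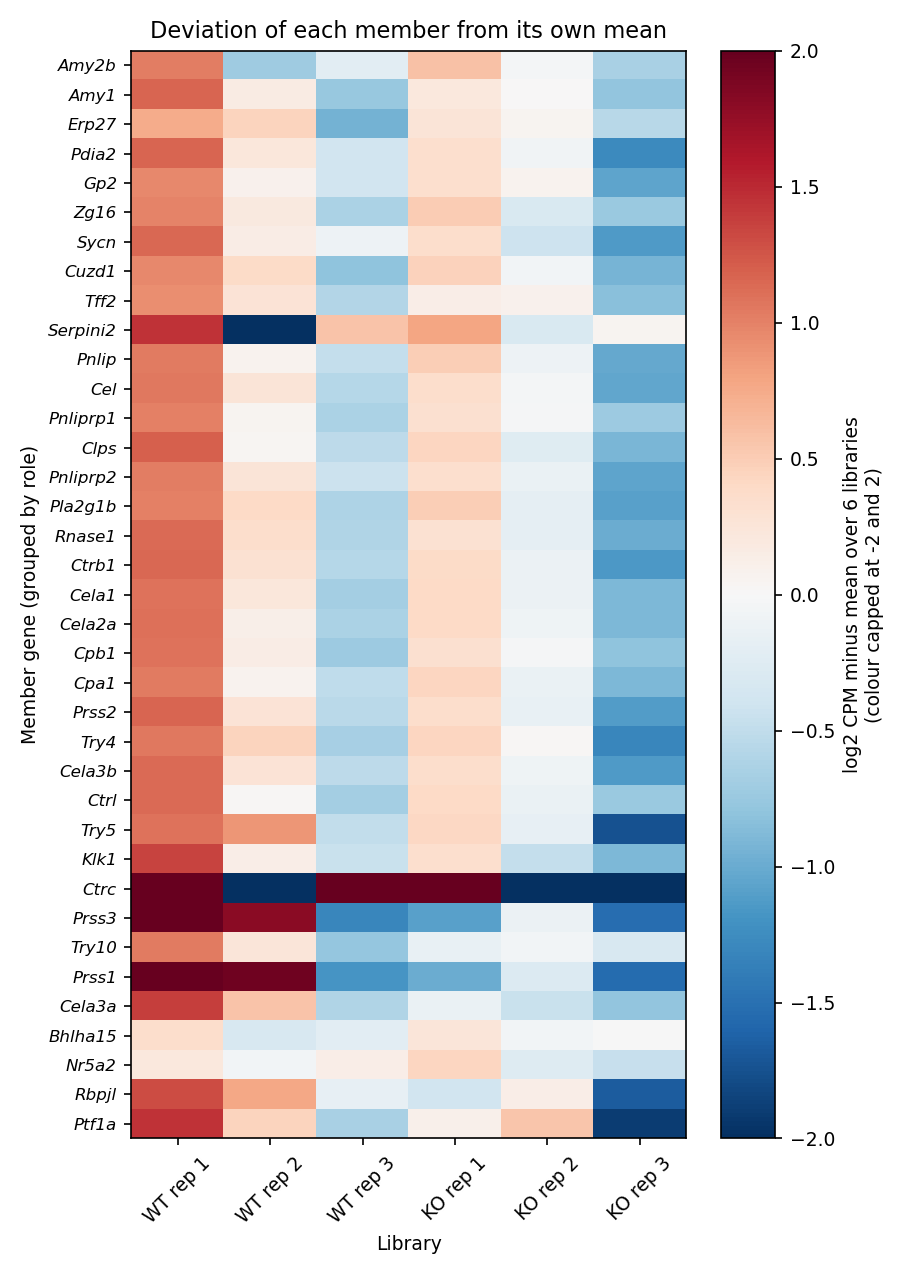
Log2 CPM of each member (rows, grouped by role) minus its own mean over 6 libraries (columns), with red above and blue below the mean and colour capped at -2 and 2. WT replicate 1 is red in nearly every row and KO replicate 3 blue, while Ctrc, Serpini2, Prss1 and Prss3 show other patterns.

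Dividing each gene by the members' total removed most of that variation. The median enzyme spanned 4.25-fold between its highest and lowest library in CPM, but 1.34-fold as counts per 10000 member counts. For 26 of the 33 enzymes the second range was at most 2-fold, and Cel was the steadiest at 1.08-fold, from a 4.25-fold range in CPM. For these 26, log2 CPM plotted against log2 of the summed other enzymes had slopes of 0.769 to 1.15, where a slope of 1 is strict proportion. Over their 325 pairs the median Pearson r across the 6 libraries was 0.970 (lowest 0.699), and without WT replicate 1 and KO replicate 3, the libraries farthest from the middle, the median was 0.946 (lowest 0.29). These coefficients describe 6 points that share the same libraries, and no p is given for them. The 26 were picked for their narrow range on this scale, which favours a high r and a slope near 1. Over all 528 pairs of the 33 enzymes the median r was 0.937, and 58.3% of pairs had an r of at least 0.9. Of the 33 enzymes 25 had an r of at least 0.9 with the sum of the others, against 1.49% of the 15878 tested genes outside the list with the summed enzymes.

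**Figure D3:**
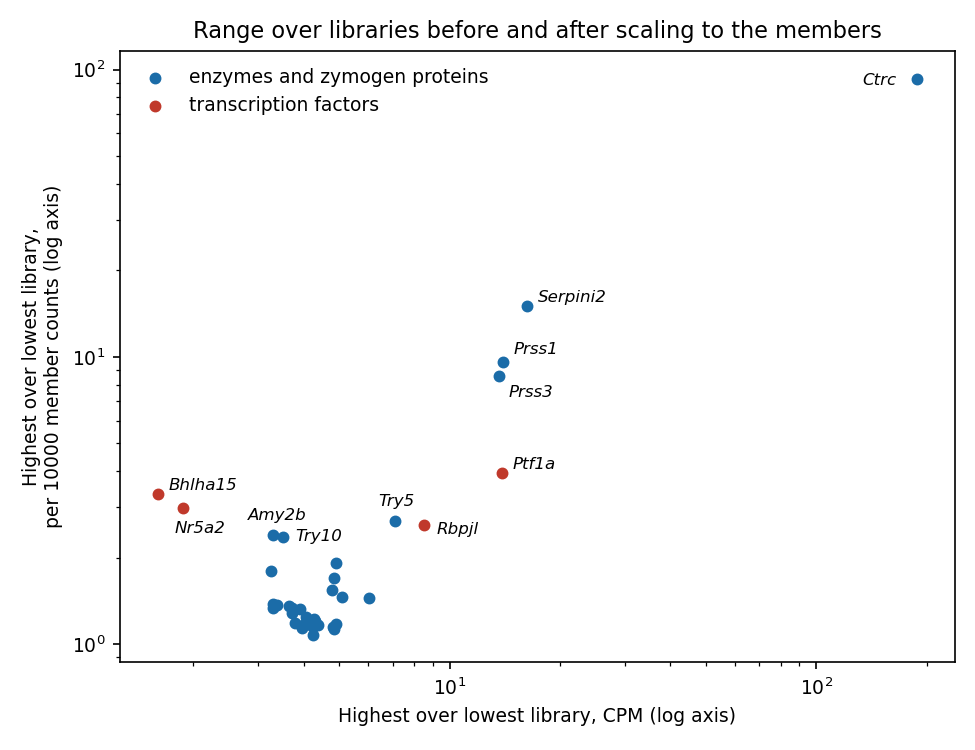
Ratio of the highest to the lowest library for each member, in CPM (x axis, log) and as counts per 10000 member counts (y axis, log). Most enzymes (blue) sit near 4-fold in CPM and under 2-fold after scaling. Labelled genes have a range above 2-fold after scaling, among them all 4 transcription factors (red). Of these, Bhlha15 and Nr5a2 ranged only 1.60-fold and 1.88-fold in CPM.

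Some promoters of these co-varying genes are shown because the list also holds the acinar transcription factors, and letters bound by these can be searched for in them. The 250 bases before the gene start were taken from RefSeq (GRCm38.p6), which had an entry for 30 of the 38 symbols, 26 of them enzymes. Each line reads 5′ to 3′ on the strand of the gene, and capitals mark every match, on either strand, of CACCTG or TTTCCC (the E-box and the RBPJ-type element of a PTF1 site) or of AAGGTCA (the NR5A2 type). The windows are Cela1 chr15:100687921-100688170 on the minus strand, Cel chr2:28563404-28563653 on the minus strand, Prss2 chr6:41521526-41521775 on the plus strand and Ctrb1 chr8:111691011-111691260 on the minus strand.
Cela1: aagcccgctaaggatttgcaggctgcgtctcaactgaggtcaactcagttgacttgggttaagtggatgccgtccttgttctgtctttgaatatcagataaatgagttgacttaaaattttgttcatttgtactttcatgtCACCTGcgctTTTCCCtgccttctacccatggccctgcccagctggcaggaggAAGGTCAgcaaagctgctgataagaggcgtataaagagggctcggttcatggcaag
Cel: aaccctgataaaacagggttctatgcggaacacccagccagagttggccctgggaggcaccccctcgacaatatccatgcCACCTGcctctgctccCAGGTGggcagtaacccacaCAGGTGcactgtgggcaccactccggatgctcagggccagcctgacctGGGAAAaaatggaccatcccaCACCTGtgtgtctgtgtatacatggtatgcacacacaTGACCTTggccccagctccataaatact
Prss2: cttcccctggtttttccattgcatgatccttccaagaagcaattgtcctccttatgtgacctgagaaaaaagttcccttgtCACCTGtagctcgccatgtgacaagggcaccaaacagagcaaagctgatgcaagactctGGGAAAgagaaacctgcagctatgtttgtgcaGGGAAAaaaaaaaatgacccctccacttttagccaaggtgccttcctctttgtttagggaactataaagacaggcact
Ctrb1: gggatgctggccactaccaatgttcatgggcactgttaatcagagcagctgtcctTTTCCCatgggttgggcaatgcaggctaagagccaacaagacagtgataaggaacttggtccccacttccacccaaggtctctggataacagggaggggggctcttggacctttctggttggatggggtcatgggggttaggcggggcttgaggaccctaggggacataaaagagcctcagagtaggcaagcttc
CACCTG was found in 16 of the 26 enzyme promoters (61.5%) and in 17.1% of all 27025 promoters in the table. TTTCCC was found in 8 (30.8%, against 21.9%) and AAGGTCA in 4 (15.4%, against 4.05%). Both CACCTG and TTTCCC occurred in 6 (23.1%, against 3.63%). The promoters of Cela1, Cel and Prss1 held all 3, and Prss1 is among the members that depart from the shared pattern described above. In Cela1, CACCTG and TTTCCC lie close together in the same direction. Ctrb1, the most abundant member, held TTTCCC alone. Of the promoters shown, those of Cela1, Cel and Prss2 are among the 6 with both CACCTG and TTTCCC, so the display is not typical of the enzymes. The promoters of the abundant Pnlip, Pnliprp1 and Rnase1, not shown, held none of the 3. A match describes these letters in this window and is not evidence of a bound site.

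The transcription factor genes did not follow the enzymes equally. Ptf1a (chromosome 2, 19367290 to 19369128) and Rbpjl (chromosome 2, 164228641 to 164240948), both subunit genes of PTF1, were scarce. Ptf1a drew 70, 34 and 15 counts across WT replicates, compared with 26, 36 and 5 across KO replicates, and its slope against the summed enzymes was 1.62 (r = 0.922). Rbpjl drew 189, 130 and 67 counts across WT replicates, compared with 56, 81 and 22 across KO replicates (slope 1.21, r = 0.841). WT replicate 1 was the highest and KO replicate 3 the lowest library for both genes, although the libraries between were ordered differently from the enzymes. The annotated gene Gm13336 shares 35.4% of the Ptf1a transcript's 50-base words, and reads of these genes cannot be told apart there.

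Bhlha15 and Nr5a2 were far steadier. Bhlha15 (chromosome 5, 144951155 to 144955310) was at 118.0, 73.9 and 79.7 CPM in WT and 109.5, 89.6 and 92.2 CPM in KO, a range of 1.60-fold against 4.25-fold for the median enzyme, with a slope of 0.199. Nr5a2 (chromosome 1, 138740161 to 138857004), at 4.15, 3.42 and 3.93 CPM in WT and 4.83, 2.98 and 2.56 CPM in KO, ranged 1.88-fold with a slope of 0.304. It too was scarce, with 68 to 127 counts. The r with the summed enzymes was 0.568 for Bhlha15 and 0.672 for Nr5a2. For every 10000 member counts Bhlha15 went from 12.4 in WT replicate 1 to 41.3 in KO replicate 3. Scaled by exonic length, Bhlha15 had a mean of 26.9 CPM per kilobase and the other 3 factors 0.594 to 0.9498.

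Ctrc, which encodes the zymogen-processing chymotrypsin C (chromosome 4, 141394154 to 141402274), split the libraries into 2 separate levels that did not follow genotype. It had 20672 and 14005 counts in WT replicates 1 and 3 and 13895 in KO replicate 1, but 410 in WT replicate 2 and 241 and 109 in KO replicates 2 and 3. Scaled to 10000 member counts these were 81.1, 171.1 and 89.8 in the high libraries and 2.96, 2.22 and 1.84 in the low ones, a range of 93.1-fold. No other member had a wider range. None of its transcript's 50-base words occurs in another annotated gene, and the high and low libraries each include both genotypes. Both libraries with high Xist were low for Ctrc, and so was WT replicate 2, with 6 Xist counts.

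The genes beside Ctrc on mm9 did not show that split. Cela2a (pancreatic elastase 2A), its nearest tested neighbour on one side, was at 7510, 3825 and 2258 CPM in WT and 4625, 3319 and 1895 in KO, the order of the other enzymes. Efhd2, the nearest on the other side, stayed between 32.1 and 40.2 CPM. Over the 5 tested genes on each side, r with Ctrc ran from -0.888 to 0.693. Among 638 other tested genes with a mean of at least 1 CPM and a log2 range of at least 2, 9 had an r with Ctrc of at least 0.95, a rule chosen after its values were seen. One was Padi2, a peptidylarginine deiminase gene also on chromosome 4 (140462259 to 140508501), at 11.4, 2.82 and 15.8 CPM in WT and 13.2, 2.63 and 2.60 in KO. Several of the others were pseudogenes or gene copies, such as Rpl15-ps2 on chromosome 9, with WT counts of 333, 3 and 275 and KO counts of 345, 7 and 4, and Eno1b, with WT counts of 176, 5 and 293 and KO counts of 187, 4 and 1.

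Serpini2, a serine protease inhibitor gene of the pancreas (chromosome 3, 75046292 to 75074000), was low in a single library. It drew 1916, 118 and 1047 counts across WT replicates, compared with 1197, 558 and 719 across KO replicates. Per 10000 member counts WT replicate 2 held 0.8505 and the other 5 libraries 5.13 to 12.8. Amy2b (chromosome 3, 112950574 to 112959645), one of several amylase copies, was also lowest in WT replicate 2, at 43.1 per 10000 member counts against 76.7 to 103.3 elsewhere. Its transcript shares 39.5% of its 50-base words with other annotated genes, mostly Amy2a2, so counts of single amylase copies are uncertain. Amy1, the salivary-type amylase gene, kept a narrow range of 1.33-fold on the same scale. Its transcript also shares 33.3% of its 50-base words with other annotated genes, mostly Rnpc3.

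**Figure D4:**
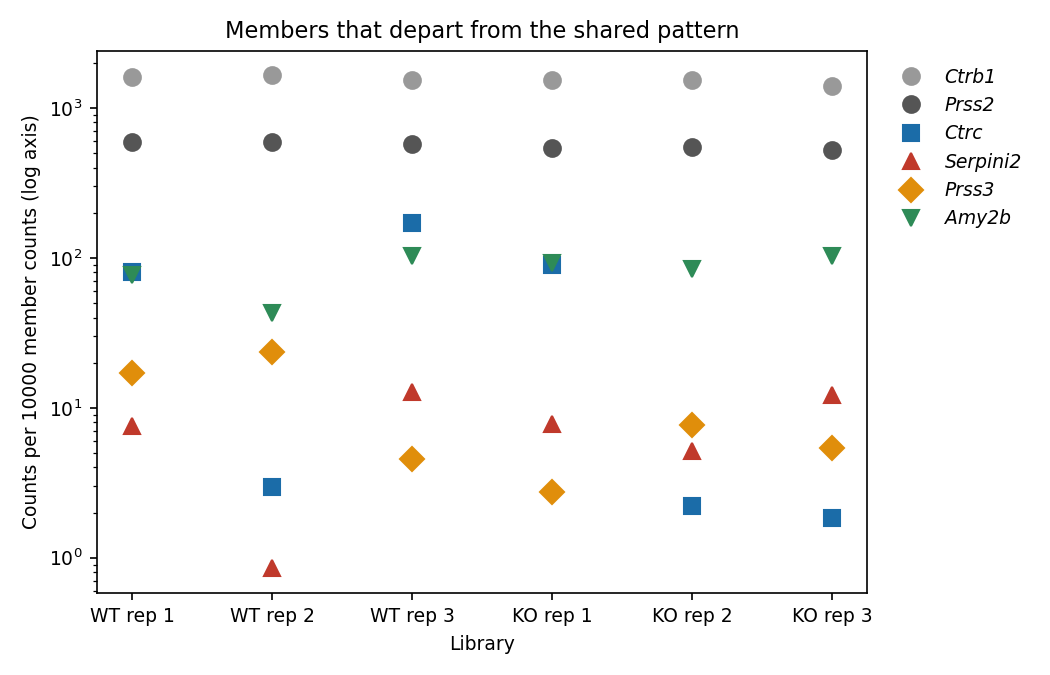
Counts per 10000 member counts (y axis, log) in each library (x axis) for Ctrc, Serpini2, Prss3 and Amy2b, with Ctrb1 and Prss2 as steady members. Ctrc separates WT replicates 1 and 3 and KO replicate 1 from the rest, and Serpini2 is low in WT replicate 2 alone.

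The trypsinogen genes form a tandem cluster on chromosome 6, and several are close copies of each other. The first 90 bases of the coding sequence of 6 of them (GENCODE vM1 on mm9, 5′ to 3′ from the start codon) are given here to show how alike the copies are, with capitals where a base differs from Prss2.
Prss2: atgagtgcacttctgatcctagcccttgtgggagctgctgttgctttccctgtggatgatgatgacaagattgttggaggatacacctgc
Prss1: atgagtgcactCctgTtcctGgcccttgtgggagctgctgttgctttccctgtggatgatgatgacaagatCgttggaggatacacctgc
Prss3: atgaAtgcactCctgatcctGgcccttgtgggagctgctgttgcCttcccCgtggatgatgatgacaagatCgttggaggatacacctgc
Gm10334: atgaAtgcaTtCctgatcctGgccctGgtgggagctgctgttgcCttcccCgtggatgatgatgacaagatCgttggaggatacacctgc
Try4: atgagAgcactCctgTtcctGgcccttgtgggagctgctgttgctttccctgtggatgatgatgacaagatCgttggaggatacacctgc
Try5: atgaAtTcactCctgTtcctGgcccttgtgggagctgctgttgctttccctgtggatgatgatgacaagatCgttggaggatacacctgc
Over the whole coding sequence Prss3 was 99.1% identical to Gm10334, an unlisted copy, and 96.4% to Prss1, but 88.7% to Prss2. Try4 and Try5 were 97.4% identical. Of the 50-base words of their transcripts, 66.9% in Prss3, 62.2% in Try4, 54.9% in Prss1, 42.7% in Try5 and 39.4% in Try10 also occur in another gene, compared with 7.83% in Prss2. Counts of these copies may be lost or split, and a change in one cannot be told apart from one in its copies. Of the 37 listed genes with a transcript in that annotation, which include Spink3 but not Cela3a, 23 shared none.

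Within the cluster, 2 patterns appeared. Prss2, at 592.9, 592.1 and 571.7 per 10000 member counts in WT and 542.5, 548.9 and 523.6 in KO, kept its share within 1.13-fold. Prss3 and Prss1 instead were high in WT replicates 1 and 2. Prss3 drew 4355, 3262 and 375 counts across WT replicates, compared with 425, 840 and 318 across KO replicates, and Prss1 drew 155, 146 and 15 in WT and 17, 29 and 11 in KO. Gm5771 (2158, 1746 and 101 in WT and 98, 292 and 90 in KO) and Gm10334, both unlisted copies in the same interval, were likewise highest in WT replicates 1 and 2. These genes lie between 41323794 and 41413785, whereas Try4, Try5 and Try10 lie before and Prss2 after that stretch. Try5 was relatively high in WT replicate 2 (369 per 10000) and low in KO replicate 3 (137.3), and Try10 was relatively high in KO replicate 3 (7.64, against 3.24 to 4.95 elsewhere). An unlisted trypsin-like gene that is abundant here, 2210010C04Rik, held a share of 597.4 to 704.8 and shares no 50-base words with other genes.

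For the comparison of the design, KO against WT, no acinar gene passed the test. In edgeR's quasi-likelihood fit of all 15915 tested genes a call needed an adjusted p below 0.05. It was reached by 27 genes (0.170%) with lower and 0 (0%) with higher levels in the KO libraries, and none of the 37 members was among them. At an unadjusted p below 0.05 the fit held 2 members lower, against 9.38% of all genes, and 0 higher, against 6.99%. The members were Prss1, at -2.43 (SE 0.83, adjusted p = 0.233), and Prss3, at -2.31 (SE 0.82, adjusted p = 0.249), which share much of their sequence. Without WT replicate 3, Prss1 passed the test (-2.94, SE 0.38, adjusted p = 0.0484). Of the 37 members 36 had a negative log2 fold change, against 49.7% of all tested genes, with a median of -0.53 beside 0.0023 over all genes. In none of the 37 did the groups separate in CPM in either direction, whereas 12.1% of all tested genes were lower and 11.3% higher in every KO than in every WT library.

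**Figure D5:**
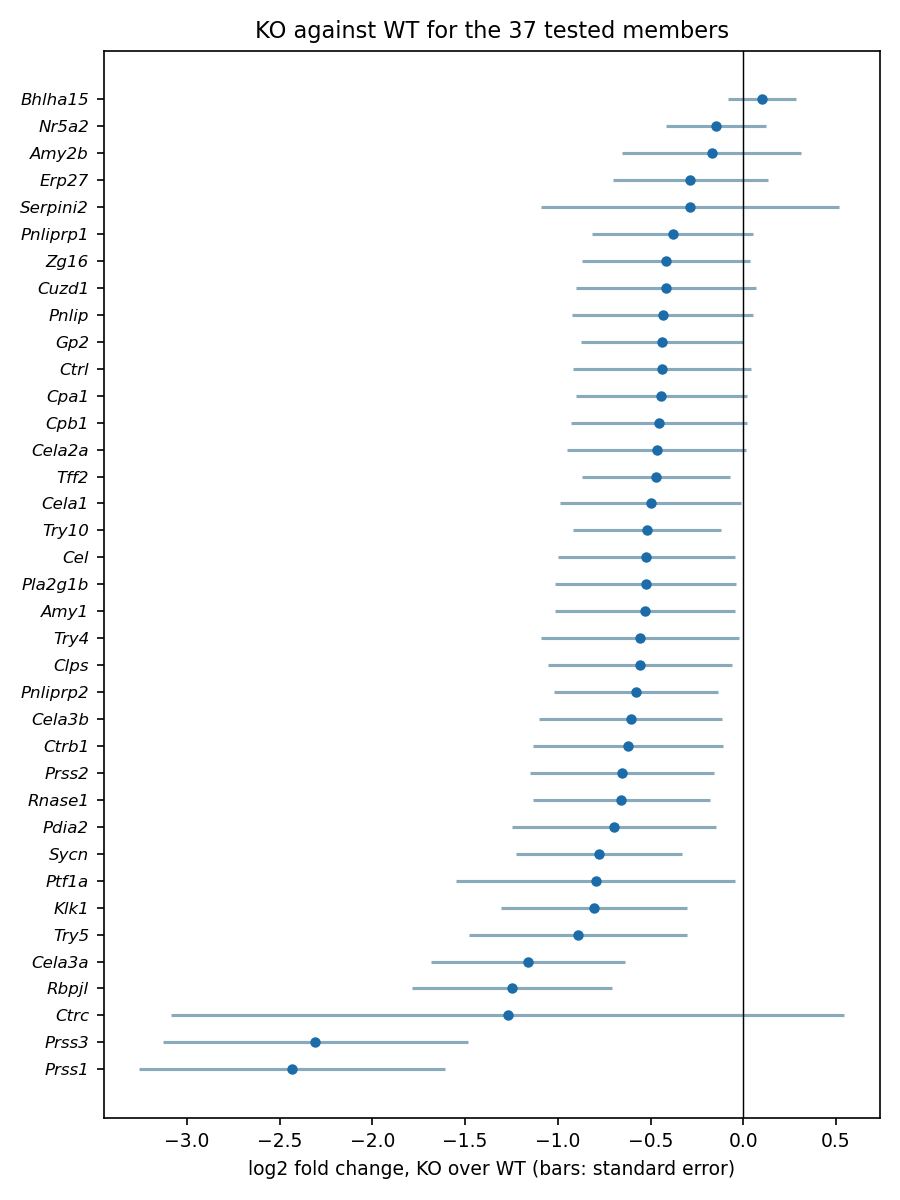
Log2 fold change of KO over WT (x axis) for the 37 tested members (y axis, sorted), with bars of 1 standard error. All points but Bhlha15 lie below 0, and none passed at an adjusted p below 0.05.

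The errors of the members were wide. The median standard error of the members was 0.485, compared with 0.149 over all tested genes. Ctrb1 was at -0.62 (SE 0.51, adjusted p = 0.593), Pnlip at -0.43 (SE 0.49, adjusted p = 0.700) and Amy2b at -0.17 (SE 0.48, adjusted p = 0.894). Ctrc had the largest standard error, at -1.27 (SE 1.82, adjusted p = 0.772), and Serpini2 stood at -0.29 (SE 0.80, adjusted p = 0.892). Rbpjl was at -1.25 (SE 0.54, adjusted p = 0.313) and Ptf1a at -0.80 (SE 0.75, adjusted p = 0.645). Bhlha15 was the only member with a positive value, 0.10 (SE 0.18, adjusted p = 0.824), and Nr5a2 was at -0.15 (SE 0.27, adjusted p = 0.824). The median depended on WT replicate 1, the library with the largest acinar share: without it 20 members were negative and 17 positive, with a median of -0.039. Without KO replicate 3 the median was -0.22, and with a sex covariate, under which the contrast rests on KO replicate 1 against WT, it was -0.037.

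With the enzymes scaled to their own sum, an alternative chosen after seeing the data, 18 enzymes were positive and 15 negative in KO against WT, with a median log2 fold change of 0.0050 and a median standard error of 0.116, and edgeR called 0 of 33 (2 at an unadjusted p below 0.05, Prss1 and Prss3 again, both lower). Try5 was at -0.50 (SE 0.26, adjusted p = 0.384), Sycn at -0.32 (SE 0.15, adjusted p = 0.334) and Pnliprp1, a lipase-related gene, at 0.20 (SE 0.11, adjusted p = 0.402). Prss2 was at -0.12 (SE 0.078, adjusted p = 0.497). In Prss2, Cela3b and the low-count Pdia2 every KO share lay below every WT share, and in no enzyme was the reverse seen. In CPM, 12.1% of all tested genes were lower in this way. On this scale a member's change is relative to the other enzymes only.

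Other acinar genes outside the list behaved alike in part. Of 15 tested, 0 were called in edgeR, 12 were negative and 3 positive, with a median of -0.51. Reg1, a secreted lectin gene of acinar cells, was at 2722, 1339 and 445.4 CPM in WT and 1045, 1204 and 711.3 in KO, and Dmbt1 at 292.8 to 1068 CPM over the 6 libraries. Cckar, the cholecystokinin receptor gene, was at 47.1, 25.6 and 13.9 CPM in WT and 24.5, 21.3 and 14.2 in KO. The muscarinic receptor gene Chrm3 and the granule GTPase gene Rab3d did not track the enzymes (r = -0.421 and 0.183), with ranges of 41.3 to 53.6 and 182.9 to 263.3 CPM. In the list of secretory and endoplasmic reticulum genes 0 of 24 tested were called, 13 were positive and 11 negative, and the median was 0.041. Its members Xbp1, a transcription factor gene of the unfolded protein response, Hspa5 and Pdia4 ranged from 306.2 to 413.5, 1433 to 1714 and 160.3 to 221.3 CPM. Their r with the summed enzymes was 0.216, 0.232 and 0.0546. Over the tested genes of this list r ran from -0.852 (Slc7a8) to 0.974 (Chrm1), with Sel1l at 0.972, so some of its genes tracked the enzymes. Chrm1 was near the detection limit at 0.188 to 1.35 CPM, and Sel1l ranged only from 167.9 to 267.0 CPM. Cckar (r = 0.964) stands in both lists.

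By the highest r with the summed enzymes, and with genes known only by a clone or model name left out, the genes most alike outside the list at a mean of at least 1 CPM included Cd38, Adam19, Itga4, Aqp12, Zfp768, Slc39a5, Tmem97, Homer2 and Bmp7, with r of 0.988 to 0.993 over 6 libraries. Among those left out, 2210010C04Rik reached 0.994. Of these, Aqp12 (an acinar aquaporin) and Slc39a5 (a zinc transporter) also stood in the list of other acinar genes. Their ranges differed: Adam19 varied 4.25-fold, Aqp12 3.61-fold and Slc39a5 3.69-fold, like the enzymes, and Zfp768 only 1.45-fold.

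Beside the lower values of 36 of the 37 members in KO, the summed markers of some other cells differed between the groups in the opposite direction. Beta cell markers summed to 210900 to 229300 CPM in WT and 272700 to 280300 in KO, pan-endocrine markers to 22140 to 24830 and 26240 to 26410, and endothelial markers to 227.7 to 277.2 and 307.5 to 353.3, without overlap. In edgeR 0 genes of these lists were called. Ins1 and Ins2, most of the beta sum, were higher in every KO than in every WT library, as were Ucn3, Cdh5, Kdr and Flt1. Iapp, Mafa, Slc2a2, Pecam1, Vwf and each pan-endocrine gene overlapped, such as Chga (11330 to 15120 CPM in WT, 12380 to 16070 in KO). Over all tested genes 11.3% were higher in this way. Duct genes summed to 447.9 to 468.9 CPM in WT and 433.1 to 500.6 in KO, with 0 of 11 tested called. The duct keratin gene Krt19 was at 3.63, 4.83 and 0.704 CPM in WT and 0.989, 0.954 and 0.791 in KO, high in the same 2 libraries as Prss3, while Krt7 and Krt8 ranged from 163.8 to 209.8 and from 89.5 to 102.1 CPM. The duct list's carbonic anhydrase gene Car2, named after its values were seen, was at 2.43, 0.706 and 0.481 CPM in WT and 1.07, 0.649 and 0.490 in KO, and tracked the enzymes (r = 0.925). The 5 lymphocyte markers summed to 244.9, 260.9 and 45.9 CPM in WT and 160.6, 94.0 and 105.5 in KO. They too were highest in WT replicates 1 and 2, and their part in the pattern of Prss3 was not tested. The 8 stellate and fibroblast markers were lowest in WT replicate 1 (81.3 CPM) and ranged up to 193.8. Counts of the insulin, glucagon, somatostatin and pancreatic polypeptide genes made up 23.7% of WT replicate 1 and 26.03% to 28.6% of the other libraries. Mitochondrial transcripts took 2.29% to 2.99% of counts. The part of these cells and of RNA quality in the acinar values was not tested.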

How the data were processed

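Per the submitters' processing notes, CASAVA 1.8.2, HISAT2 2.1.0, HTSeq, DESeq2 and build mm9 were used. Which annotation, counting options and strand setting were used is not given in these sources. The authors deposited raw read counts, not normalized, one column per library, matched to samples by the library name (0 columns unused). Counts were fitted in R 4.3.3 with edgeR 4.0.16 (filterByExpr by genotype, TMM, quasi-likelihood F-test, Benjamini-Hochberg adjustment over 15915 genes, called below 0.05). Log CPM used a prior count of 2. Lengths, positions and 50-base words came from GENCODE vM1 on mm9 by symbol, promoters from RefSeq. The alternatives were DESeq2 1.42.0, DESeq2 size factors, scaling without the members, 2 other filters, limma-voom (limma 3.58.1), the replicate number as a block, a sex covariate, a threshold of 0.1, and leaving out each library. Scaling enzymes to their sum was chosen after seeing the data. In data simulated for KO against WT (15915 genes), edgeR recovered 22.0%, 64.0% and 83.0% of genes changed 1.5-, 2- and 4-fold, and 5.97% of its calls were false. The changed genes were drawn at random from all tested genes with a mean of at least 1 CPM. These rates do not describe the members, whose median standard error was 0.485 against 0.149 over all tested genes. Members and lists were chosen with earlier results of these data known. Named are the leading members of each role, the transcription factors, the members that depart most from the shared pattern, the first 3 tested genes of the other acinar, secretory and duct lists (other lists by sums), and the 10 genes most alike with predicted genes left out; other genes were named after their values were seen. One gene that this rule names is not reported here. The marker sums of lists not described, as ranges over 6 libraries, were 30470 to 44080 CPM for alpha cells, 2067 to 3947 for delta cells, 2340 to 5397 for Ppy, 88.9 to 205.5 for macrophages, 8.86 to 16.9 for Schwann cells and 1.11 to 7.71 for erythrocytes. Plots were made in matplotlib 3.10.9 (Python 3.11.15).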

Additional observations from a re-analysis of the deposited data

How the results depend on the processing

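No member was called under any alternative except Prss1, which was lower without WT replicate 3 (-2.94, adjusted p = 0.0484, 1 member called; leaving out a library otherwise gave 0 called lower and 0 higher). The median of the members ran from -0.856 to -0.039 when single libraries were left out, was -0.037 with the sex covariate and 0.001 with the enzymes scaled to their sum, and lay between -0.531 and -0.477 under the other alternatives. Over all genes, calls lower in KO were 27 in edgeR, but 437 in DESeq2, 125 at a threshold of 0.1, 0 in limma-voom, 0 with the sex covariate and 0 with the replicate block, and ran from 0 to 80 without single libraries. Calls higher were 0 in edgeR, 209 in DESeq2 and 7 at the threshold of 0.1, and ran from 0 to 9 without single libraries. The labels do not say that replicate numbers pair samples, so the numbers were not taken as pairs. Over all tested genes, deviations of same-numbered libraries correlated at 0.183, 0.0576 and 0.032. Those of differently numbered libraries correlated at -0.113 to 0.0585. Most enzymes, however, fell from replicate 1 to replicate 3 in both genotypes. With the replicate block the standard error of Ctrb1 was 0.111 instead of 0.511, and that of Ctrc 1.47 instead of 1.82. Ctrb1 was then at -0.585 (edgeR adjusted p = 0.209), and the block called 0 members. Whether the numbers mark shared handling was not tested. The KO minus WT difference of the summed share, -2.03 percentage points, was -0.301 without WT replicate 1, the library with the highest share, and ran to -3.44 without WT replicate 3; the SD of WT, 3.18, is larger than the difference. The cause of these changes was not tested. The depth, at least 25733194 counts per library, leaves Ptf1a, Rbpjl, Nr5a2, Prss1, Pdia2 and Cela3a with 5 to 189 counts each.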
